A study of Mus musculus with 1248 samples.

Results

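The inhibitor of DNA binding genes Id1, Id2, Id3 and Id4 and the inhibitory SMAD genes Smad6 and Smad7 were followed in single tumour cells recovered from bone, from a mammary fat pad tumour and from culture. They are 6 of the 40734 genes in the table of read counts, and they were picked by symbol, not by their values. All 6 were found. Levels are given as CPM, the count of a gene scaled to 1000000 gene counts, either of a single well, which held 1 sorted cell, or of the counts summed over the wells of a group.

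ID proteins carry the helix-loop-helix fold without the basic region that touches DNA. They pair with E proteins such as those encoded by Tcf3, Tcf4 and Tcf12 and keep them off their sites, which in many lineages holds back differentiation. Id1, Id2 and Id3 are textbook target genes of bone morphogenetic proteins (BMPs), whose receptors phosphorylate SMAD1 and SMAD5. Smad6 and Smad7 are targets of the same ligand family and encode its brakes: SMAD6 acts mainly on BMP receptors, and SMAD7 on TGF-beta and BMP receptors alike. Serum and immediate early signals also induce Id genes, and blood lineages use them in turn, Id2 in innate lymphoid and myeloid cells and Id3 in lymphocytes.

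The lines were 4T1, a mouse mammary carcinoma line of BALB/c origin, and 4T1.2, a line cloned from it, both carrying Firefly luciferase and mCherry. Tumour cells had been given to female BALB/c mice by intracardiac injection, and hindlimb cells positive for mCherry were sorted at days 4, 10 and 16 after 4T1 and at day 4 after 4T1.2. A 4T1 tumour grown in the mammary fat pad to day 22, cultured 4T1 cells and cultured 4T1.2 cells were the other groups, which makes 7 in all. Wells with an mCherry Ct above 30 in qPCR had been discarded by the authors. Age, animal, plate and culture are not named for any well, so each group counted as 1 sample: no difference was tested across animals, and "at least 2-fold apart" is a size, on the scale of log2 (CPM + 5), not a test. Intervals are exact 95% intervals that cover counting error only, and the reads carried no molecular identifiers.

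The labels call every well a metastatic tumour cell, and the data went against this for many wells. A well counted as tumour where the CPM of the epithelial keratins Krt8 and Krt18 together exceeded the sum of the blood cell genes Ptprc, Coro1a, Laptm5 and Rac2, and counted as host where it did not. Of 1218 wells that passed the filter, 501 were tumour wells and 717 host wells. The 4T1 groups held 137 tumour and 359 host wells at day 4, 54 and 41 at day 10, 71 and 119 at day 16 and 85 and 10 in the fat pad, and 54 tumour wells and 0 host wells in culture. In 4T1.2 there were 47 tumour and 188 host wells at day 4, and 53 tumour wells in culture. The reporter entry luciGFP had a median of 33.0 to 96.9 CPM in the tumour wells of a group and of at most 1.53 CPM in host wells. Tumour counts summed to between 138713353 and 450849761 per group. Blood genes were not absent from every tumour well: their sum had a median of 213 CPM in 4T1.2 at day 4, where 25 of 47 wells had keratins at less than 10 times the blood genes, against at most 46.8 CPM in the other groups.

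The stretches of genome before the RefSeq starts of 4 members (GRCm38.p6) are printed because several of these genes stood higher together in bone and are SMAD targets. Id1 and Smad7 had no match in the RefSeq promoter table. Each line gives the 250 bases before the start, 5′ to 3′ on the strand of the gene, and for Smad6 also the 4 bases that complete a motif. The RefSeq and GENCODE starts differ for Id2, Id3 and Id4 and are the same for Smad6. The Id2 and Id3 stretches lie inside the GENCODE gene spans given with each gene. Capitals mark matches on either strand to the GC-rich SMAD motif GGCGCC, the palindromic SMAD-binding element GTCTAGAC or the core of the cAMP response element TGACG, which reads CGTCA on the other strand. No 2 matches overlapped.
Id2 (chr12:25096093-25096342, minus strand): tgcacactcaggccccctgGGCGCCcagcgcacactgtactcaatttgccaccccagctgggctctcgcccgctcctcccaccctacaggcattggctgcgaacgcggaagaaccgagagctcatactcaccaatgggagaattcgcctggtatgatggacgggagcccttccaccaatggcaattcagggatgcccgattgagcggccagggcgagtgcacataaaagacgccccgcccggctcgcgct
Id3 (chr4:136143572-136143821, plus strand): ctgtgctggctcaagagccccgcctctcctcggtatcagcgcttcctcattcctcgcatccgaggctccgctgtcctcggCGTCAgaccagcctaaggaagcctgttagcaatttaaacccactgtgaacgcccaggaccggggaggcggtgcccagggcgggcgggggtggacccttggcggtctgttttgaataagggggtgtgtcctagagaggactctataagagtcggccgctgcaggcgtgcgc
Id4 (chr13:48260866-48261115, plus strand): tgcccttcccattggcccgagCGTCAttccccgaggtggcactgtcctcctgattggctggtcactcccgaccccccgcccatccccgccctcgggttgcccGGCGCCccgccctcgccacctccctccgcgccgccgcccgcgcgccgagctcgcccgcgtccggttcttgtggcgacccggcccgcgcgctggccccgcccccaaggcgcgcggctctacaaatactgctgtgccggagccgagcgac
Smad6 (chr9:64022056-64022309, minus strand): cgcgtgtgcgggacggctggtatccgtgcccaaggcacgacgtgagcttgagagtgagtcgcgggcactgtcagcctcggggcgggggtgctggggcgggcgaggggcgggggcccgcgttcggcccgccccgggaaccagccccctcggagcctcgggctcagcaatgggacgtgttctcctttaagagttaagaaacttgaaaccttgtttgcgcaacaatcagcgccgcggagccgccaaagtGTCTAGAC

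Of 32851 RefSeq windows of 300 bases, 250 before and 50 after a start, 11.9% held GGCGCC on either strand, and Id2 and Id4 were among them. The element GTCTAGAC stood in 0.213% of windows, Smad6 among them, where it lies across the start. The core TGACG stood in 20.8% of windows, Id3 and Id4 among them. The 250 bases before the start were 62.8% G or C in Id2 and in Id3, 66.8% in Smad6 and 75.6% in Id4, against a median of 52.4% over all windows. A match is a run of letters, and no binding was measured here.

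In 4T1, the median well of Id1 was highest at day 4 in bone and lowest in the fat pad. At day 10 in bone it was not above that of culture, with 93.8 against 98.5 CPM. The gene has a single block of exons on chromosome 2 (152736251 to 152737410, plus strand, GENCODE M21, GRCm38). The lowest, median and highest tumour well held 33.4, 445 and 6329 CPM at day 4, 0.993, 93.8 and 9086 CPM at day 10 and 0, 152 and 3040 CPM at day 16. The same values were 0, 24.4 and 1020 CPM in the fat pad and 1.17, 98.5 and 542 CPM in culture. All 137 day 4 wells had at least 20 CPM, a line that 74.1% of day 10 wells, 83.1% of day 16 wells, 52.9% of fat pad wells and 85.2% of culture wells reached. The ranges of all groups overlapped. In 4T1.2 the lowest, median and highest wells were 8.95, 330 and 4640 CPM at day 4 and 1.29, 143 and 524 CPM in culture.

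From summed counts, Id1 stood at 658 CPM (interval 655 to 660), 477 CPM (473 to 480) and 339 CPM (337 to 342) at days 4, 10 and 16. It stood at 78.7 CPM (77.6 to 79.9) in the fat pad and at 143 CPM (141 to 145) in culture. The day 10 sum rested on few wells. Its 5 highest wells of 54 carried 74.2% of the summed per-well CPM, and a single well carried 40.4% of the Id1 counts. Without that well the day 10 level was 290 CPM.

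In 4T1, Id2 had the largest ratios of the 6 members for day 4 bone over culture and for day 16 bone over the fat pad. Its 3 merged exon blocks lie on chromosome 12 (25093799 to 25097140, minus strand). The lowest, median and highest tumour well held 1.93, 149 and 1095 CPM at day 4, 2.05, 86.3 and 609 CPM at day 10 and 3.64, 115 and 2470 CPM at day 16. In the fat pad the same values were 0, 1.07 and 535 CPM, and in culture 0, 16.5 and 159 CPM. The median well was thus higher in each bone group than in culture, and higher in culture than in the fat pad. At least 20 CPM was reached by 96.4%, 81.5% and 76.1% of wells at days 4, 10 and 16, by 15.3% in the fat pad and 44.4% in culture. Summed counts gave 211, 153 and 232 CPM at days 4, 10 and 16, 19.1 CPM in the fat pad and 31.5 CPM in culture, and in 4T1.2 109 CPM at day 4 and 19.3 CPM in culture. A single fat pad well held 29.1% of that group's Id2 counts.

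Id3 reached 20 CPM in at least 87.0% of the tumour wells of every group. It lies on chromosome 4 (136143497 to 136145755, plus strand) with 4 merged exon blocks. The lowest, median and highest tumour well held 60.6, 678 and 6875 CPM at day 4, 3.97, 276 and 8067 CPM at day 10 and 20.9, 887 and 10134 CPM at day 16. The fat pad wells held 4.20, 332 and 3439 CPM and the culture wells 2.20, 142 and 1326 CPM. Unlike Id1 and Id2, Id3 had a higher median in the fat pad than in culture. Summed levels were 887, 686 and 1355 CPM at days 4, 10 and 16, 500 CPM in the fat pad and 204 CPM in culture. For 4T1.2 they were 601 CPM at day 4 and 191 CPM in culture.

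Per kilobase of exon, summed counts of Id1 and Id3 were close in most groups and apart at day 16 and in the fat pad. Id1 stood at 567, 411 and 292 CPM per kilobase at days 4, 10 and 16, at 67.9 in the fat pad and at 123 in culture. Id3 stood at 495, 383, 757, 279 and 114 CPM per kilobase in the same order. The ratio of Id3 to Id1 per kilobase was therefore 0.874, 0.931 and 2.59 at days 4, 10 and 16, 4.12 in the fat pad and 0.925 in culture, and in 4T1.2 0.783 at day 4 and 0.735 in culture. The day 10 ratio leaned on a single well with 40.4% of the Id1 counts and 25.0% of the Id3 counts. Without it the day 10 levels, not scaled by length, were 290 CPM for Id1 and 526 CPM for Id3. The median day 10 well held 93.8 CPM of Id1 and 276 CPM of Id3. Id2 remained below both, at 86.4, 62.7, 95.2, 7.82 and 12.9 CPM per kilobase in the order day 4, day 10, day 16, fat pad and culture.

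Id4 was rare. It lies on chromosome 13 (48261228 to 48266026, plus strand), and 2 genes annotated on the other strand, A330033J07Rik and Gm49291, overlap its exons, so reads of the 3 cannot be told apart without strand. The median well had 0 CPM in all 7 groups. Summed levels were 7.00, 1.43 and 2.06 CPM at days 4, 10 and 16, 0.12 CPM in the fat pad and 0.33 CPM in culture, with 12.4% of day 4 wells at 20 CPM or more and 1.85%, 2.82%, 0% and 0% of the others. In 4T1.2 the level of 13.7 CPM at day 4 came mostly from a single well at 503 CPM, which held 85.7% of the counts, and without it the level was 2.02 CPM, against 1.65 CPM in culture.

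Smad6, whose product restrains BMP receptors, was also a minority signal. The gene lies on chromosome 9 (63953076 to 64022059, minus strand) with 6 exon blocks. The highest wells held 120, 39.4 and 166 CPM at days 4, 10 and 16, 32.0 CPM in the fat pad and 6.20 CPM in culture, and the median well at most 0.18 CPM. Summed levels were 8.36, 4.57 and 14.0 CPM at days 4, 10 and 16, 2.22 CPM in the fat pad and 0.23 CPM in culture. The 4T1.2 levels were 4.73 CPM at day 4 and 0.90 CPM in culture. At least 20 CPM was found in 17.5% of day 4 wells, 9.26% of day 10 wells, 19.7% of day 16 wells, 4.71% of fat pad wells and 0 of 54 culture wells.

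Smad7, the broader brake, was present in most tumour wells outside 4T1.2 culture. The gene lies on chromosome 18 (75367529 to 75395935, plus strand) with 6 exon blocks. The lowest, median and highest wells held 0, 73.1 and 663 CPM at day 4, 0, 79.2 and 239 CPM at day 10 and 0, 104 and 611 CPM at day 16. They held 0, 27.8 and 258 CPM in the fat pad and 0.31, 30.9 and 175 CPM in 4T1 culture. In 4T1.2 the values were 0.29, 62.6 and 309 CPM at day 4 and 0, 1.54 and 47.1 CPM in culture. At least 20 CPM was reached by 90.5%, 83.3% and 83.1% of wells at days 4, 10 and 16, 55.3% in the fat pad and 66.7% in culture, and by 87.2% of 4T1.2 wells at day 4 and 7.55% of 4T1.2 wells in culture. Cultured 4T1.2 cells had the lowest median of the 7 groups.

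**Figure D1:**
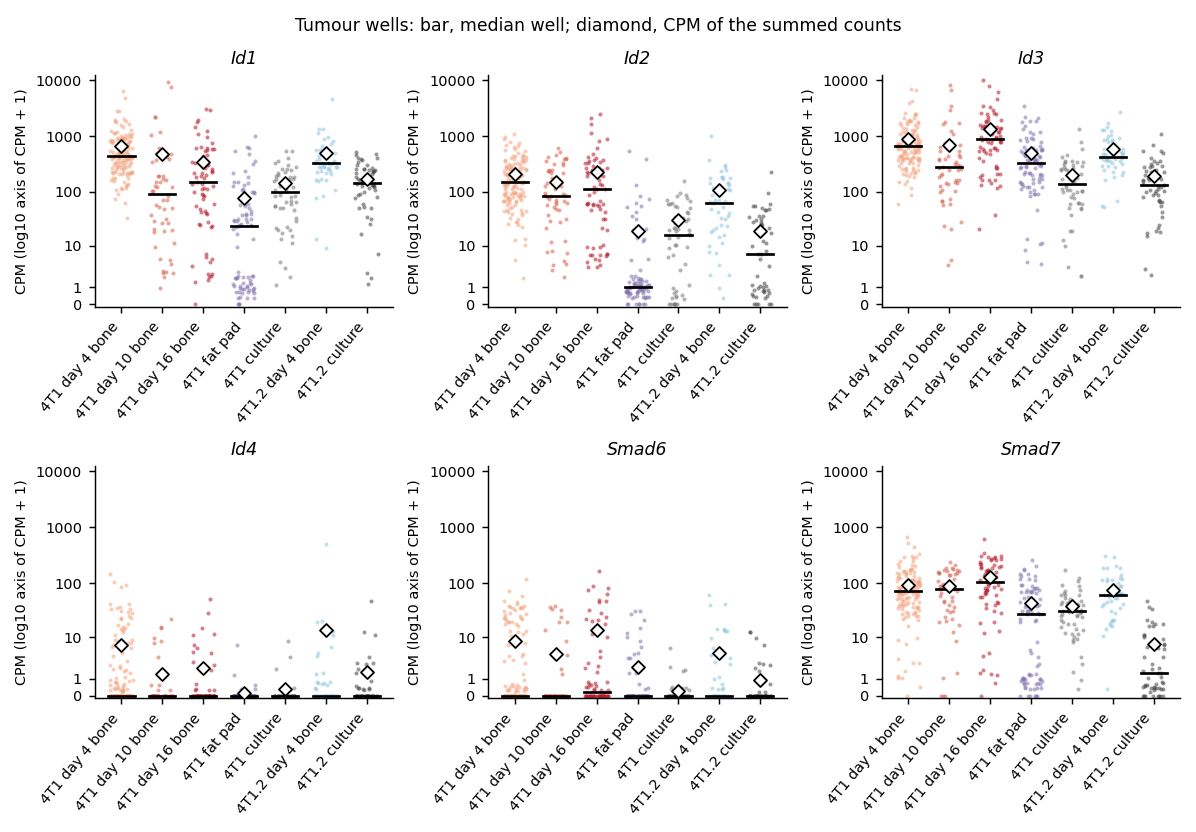
CPM of each member in every tumour well (points; vertical axis log10 of CPM + 1), with the median well (bar) and the CPM of summed counts (diamond), by group. Id1 medians run between 24.4 CPM in the fat pad and 445 CPM at day 4, and Smad7 in 4T1.2 culture has a median of 1.54 CPM.

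Day 4 bone against culture asked what the lines express soon after arrival in the marrow. In 4T1, all 6 members stood at least 2-fold higher at day 4 than in culture. Among all 10226 genes measured there, which means at 5 CPM or more in either group, 5.18% stood at least 2-fold higher. Id2 was at 211 CPM against 31.5 CPM in culture, a log2 ratio of 2.56. The ratios were 2.17 for Id1, 2.10 for Id3, 1.18 for Smad7, 1.35 for Smad6 and 1.17 for Id4. For Smad6 and Id4 the small levels, under 10 CPM in both groups, and the added 5 CPM keep these ratios low. Both reached 5 CPM only at day 4, the group where they were higher. With a floor of 20 CPM, 4 of 4 measured members stood at least 2-fold higher, beside 8.97% of all genes apart in either direction.

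The same contrast in 4T1.2 had 5 members at 5 CPM or more in either group, and all 5 stood at least 2-fold higher at day 4 than in culture, beside 6.18% of all genes. Smad7 led, with 75.9 CPM at day 4 against 7.19 CPM in culture, a log2 ratio of 2.73. Id2 followed with 2.23, then Id3 with 1.63, Id1 with 1.53 and Id4 with 1.49. Smad6 did not reach 5 CPM in either group. Without the single Id4 well described above, Id4 was no longer at 5 CPM in either group. Keeping only day 4 wells with keratins at 10 times the blood genes or more left 2.66 for Smad7, 2.30 for Id4, 2.11 for Id2, 1.81 for Id3 and 1.75 for Id1. The Id4 value of 2.30 still included the single well described above and was not recomputed without it.

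Related genes moved unevenly in these contrasts. Of 11 BMP ligand genes in the table, 1 reached 5 CPM in 4T1 at day 4 or in culture, and it was not 2-fold apart. Of 8 measured receptors, Acvr1, a BMP type I receptor, was higher at day 4 (22.1 against 8.29 CPM) and Tgfbr2, the TGF-beta type II receptor, lower (54.4 against 135 CPM). Of the receptor SMADs and SMAD4, 5 of 6 were measured and none was 2-fold apart in either line. Of 4 measured genes of E proteins and other basic helix-loop-helix factors, none was 2-fold apart in 4T1. Of 9 other TGF-beta and BMP target genes measured in 4T1, 6 stood at least 2-fold higher and 1 lower, with a median log2 ratio of 1.66 against −0.06 over all genes. Junb, an AP-1 subunit gene that is also in the immediate early list, had 2503 CPM at day 4 against 415 CPM in culture, whereas Ctgf, a matricellular protein gene, had 31.2 CPM at day 4 against 191 CPM in culture. In 4T1.2, 8 of 10 such targets stood higher and none lower.

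Immediate early genes moved with the members in this contrast. In 4T1, 13 of 14 stood at least 2-fold higher at day 4 and Myc stood lower, with a list median of 3.76. In 4T1.2 12 of 14 stood higher, with a median of 2.83. Fos, another AP-1 subunit gene, had 6897 CPM at day 4 against 19.0 CPM in 4T1 culture. Bone wells came through tissue dissociation and sorting, which culture wells did not share in the same form, and its part in the members' levels was not tested. Genes of the cell cycle list were not 2-fold apart in 4T1 (0 of 14), and 1 of 14, Mki67, was higher at day 4 in 4T1.2.

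Later stages of 4T1 bone colonisation were set against day 4. No member was at least 2-fold apart between day 10 and day 4 from summed counts, beside 7.37% of all genes in either direction. The log2 ratios were −0.46 for Id1, −0.45 for Id2, −0.37 for Id3, −0.90 for Id4, −0.48 for Smad6 and −0.07 for Smad7. Median wells differed more for Id1 and Id3: the ratios taken that way were −2.19 for Id1 and −1.28 for Id3, while the median over all genes of ratios from median wells was −0.18. Without the single highest Id1 well of day 10, the summed ratio of Id1 was −1.17, past the 2-fold line. Without the highest Id4 well of day 10 the ratio of Id4 also reached that line, at a level of 0.989 CPM.

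Some pathway genes stood higher at day 10 than at day 4. The BMP ligand gene Bmp7 had 26.5 CPM at day 10 against 6.85 CPM at day 4. Among 5 ligands of the TGF-beta and activin list, 2 stood higher, Inhba with 178 CPM at day 10 against 65.6 CPM at day 4. Of 9 receptors 2 stood higher, among them Eng, the coreceptor endoglin, with 365 CPM at day 10 against 171 CPM at day 4. Of 10 other target genes 3 stood higher and none lower, with a median of 0.34 against −0.12 over all genes. Hey1, a repressor of the basic helix-loop-helix family, had 22.0 CPM at day 10 against 1.6 CPM at day 4.

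At day 16 no member was at least 2-fold apart from day 4 either, although 19.5% of all genes were. Id1 stood at −0.94, at −1.12 without the day 16 well richest in Id1 counts, and at −1.52 from median wells, where the median over all genes was −0.45. Id3 was at 0.61, Smad6 at 0.51, Smad7 at 0.44, Id2 at 0.14 and Id4 at −0.76. A single day 16 well held 14.7% of that group's tumour counts, and with wells weighted equally Id1 was at −0.86 and Id3 at 0.58. Over the same interval 14 of 14 cell cycle genes stood at least 2-fold lower at day 16 (median −2.99). Of 5 measured genes for receptor SMADs and SMAD4, 3 stood higher at day 16: Smad1 with 54.9 CPM against 14.2 CPM at day 4, Smad4 with 42.7 against 15.1 CPM and Smad3 with 126 against 51.4 CPM.

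Of 12 intracellular negative regulators other than the members, 4 were at least 2-fold higher and 1 lower at day 16 than at day 4, with a median of 0.49 against −0.02 over all genes. For day 4 bone over culture the same list had 2 of 12 higher in 4T1 and 5 of 12 in 4T1.2. Pmepa1, which blocks receptor SMAD recruitment, had 133 CPM at day 16 against 34.2 CPM at day 4. Skil, a SMAD corepressor, had 599 CPM at day 16 against 226 CPM at day 4. The E protein gene Tcf4 had 272 CPM at day 16 against 120 CPM at day 4, and the other 3 measured genes of that list were not 2-fold apart.

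Day 16 bone against the fat pad compared late tumours of 2 sites, and here the members stood apart again. All 5 members with at least 5 CPM in either group stood at least 2-fold higher in bone, beside 7.48% of all genes. Smad6 reached 5 CPM only in bone, and Id4 in neither group. With a floor of 20 CPM, 4 of 4 measured members stood at least 2-fold higher, beside 11.1% of all genes apart in either direction. Id2 was at 232 CPM in bone against 19.1 CPM in the fat pad, a log2 ratio of 3.30. Id1 had a ratio of 2.04, Smad7 of 1.47, Id3 of 1.43 and Smad6 of 1.40. In the immediate early list 5 of 14 genes stood at least 2-fold higher in bone, with a list median of 0.72 against 0.04 over all genes. The tumours also differed in age, day 16 against day 22, which cannot be told apart from the site. Of 9 other target genes 5 stood higher in bone, and among them was Cdkn1a, the cell cycle inhibitor p21, with 203 CPM against 32.2 CPM in the fat pad.

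The fat pad against culture separated the members from one another. Only Id3 of the 4 measured members stood at least 2-fold higher in the fat pad, at 500 CPM against 204 CPM in culture, a log2 ratio of 1.28, beside 10.7% of all genes. Id1 was at −0.82, Id2 at −0.60 and Smad7 at 0.15. Without the fat pad well richest in Id1, Id1 was at −1.06. From median wells Id1 and Id2 were at −1.82 and −1.83, where the median over all genes was itself −0.89. Here 13 of 14 immediate early genes stood higher (median 3.80) and 14 of 14 cell cycle genes lower (median −1.95). These comparisons share their day 4, day 16, fat pad and culture groups with those above, so they are not independent of one another.

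**Figure D2:**
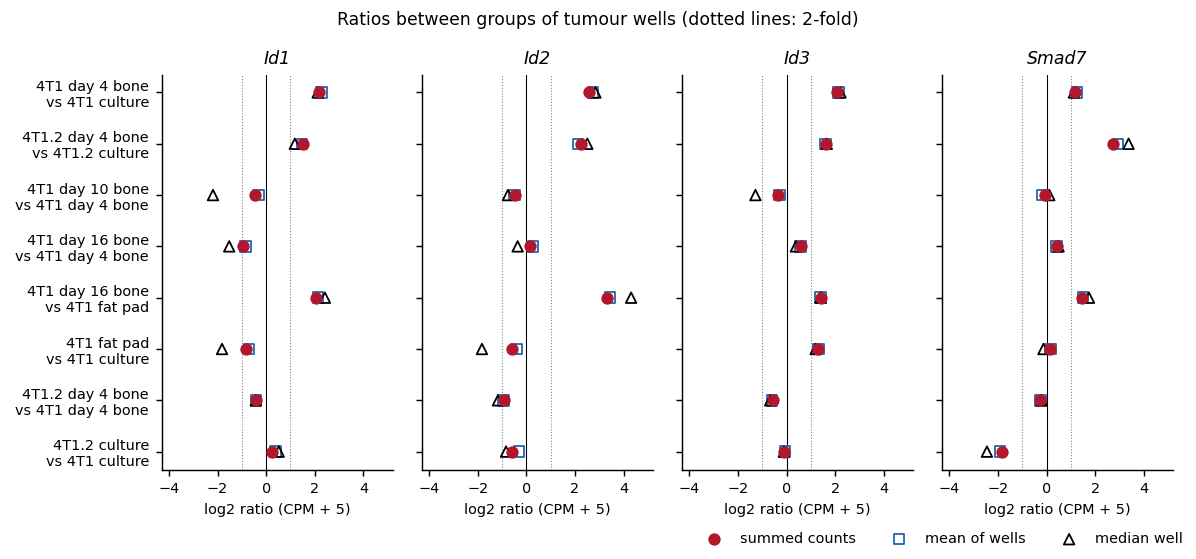
Log2 ratios on the CPM + 5 scale (horizontal axis) of Id1, Id2, Id3 and Smad7 in 8 comparisons of tumour wells, the group named first over the other, from summed counts, from the mean of wells and from median wells. The dotted lines mark 2-fold, and Id1 at day 10 against day 4 lies at −0.46 from summed counts and at −2.19 from median wells.

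The lines were also compared directly. At day 4 in bone, no member was at least 2-fold apart between 4T1.2 and 4T1, beside 9.26% of all genes. Id2 came nearest with 109 CPM in 4T1.2 against 211 CPM in 4T1, a log2 ratio of −0.92. It was at −1.01 when wells with keratins under 10 times the blood genes were left out, and at −1.25 without the 4T1.2 well richest in Id2. Id1 was at −0.40, Id3 at −0.56, Smad7 at −0.30, Smad6 at −0.46 and Id4 at 0.64, the last at −0.78 without its richest 4T1.2 well. In this comparison 7 of 14 immediate early genes stood lower in 4T1.2, for example Atf3 with 236 CPM against 996 CPM in 4T1.

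In culture 1 of 4 measured members stood apart between the lines. Smad7 was at 7.19 CPM in 4T1.2 (6.80 to 7.60) against 38.8 CPM in 4T1 (37.8 to 39.7), a log2 ratio of −1.84, beside 4.98% of all genes at least 2-fold lower in 4T1.2. Id1 was at 0.23, Id3 at −0.09 and Id2 at −0.59. Of other pathway genes, 5 of 8 measured target genes and 2 of 11 negative regulators were lower in cultured 4T1.2 and none of either list higher. Of 9 receptors none was lower and 1 higher, the TGF-beta coreceptor gene Tgfbr3, with 22.6 CPM in 4T1.2 against 1.35 CPM in 4T1. Pmepa1 had 1.02 CPM in 4T1.2 against 36.2 CPM in 4T1, and Skil 25.4 CPM against 80.3 CPM. Inhba, the activin A subunit gene, had 1.06 CPM in 4T1.2 against 119 CPM in 4T1, and it was also lower at day 4 in bone, with 3.22 CPM against 65.6 CPM. Unlike Inhba, Smad7 stood at 75.9 CPM in 4T1.2 against 94.3 CPM in 4T1 at day 4.

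Id1, Id2 and Id3 were positively correlated across the wells of most groups, and Id4 less so. Pearson correlations of log2 (CPM + 5) across tumour wells are descriptions, since the wells of a group count as 1 sample. Id1 and Id3 had a mean r of 0.51 over the 7 groups, with values between 0.16 in the fat pad and 0.68 at day 10. Id3 was the gene most like Id1 among 6877 compared, followed by Fos and Jun, both at 0.34. For Id3 the order was Id1 at 0.51, Jun at 0.37 and Id2 at 0.36, and for Id2 it was Id3 at 0.36, Id1 at 0.33 and Gadd45b at 0.27. In the fat pad Id2 and Id3 had an r of −0.07 and Id3 and Id4 of −0.33. Over the 7 groups Id4 had a mean r of 0.05 with Id2 and of 0.06 with Id3.

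Smad7 had other neighbours. Its highest mean correlations were with Skil at 0.29, Hbegf, an EGF-family ligand gene, at 0.28 and Mafk, a small MAF factor gene, at 0.27. Smad6 was most like Uqcc3 at 0.21, Erbb2 at 0.20 and Tnip2 at 0.19, and Id4 was most like Id1 at 0.16, Unc5b at 0.14 and Tram2 at 0.14. Correlations of this size carry no finding for Smad6 and Id4, whose counts were sparse. Those of Smad7, which was present in most tumour wells outside 4T1.2 culture, are descriptions only.

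The correlation of ID genes with immediate early genes varied by group. The correlation of Id1 with the summed immediate early list was 0.48, 0.62 and 0.74 at days 4, 10 and 16 (137, 54 and 71 wells), 0.03 over 85 fat pad wells and −0.17 over 54 culture wells. In 4T1.2 it was 0.48 at day 4 (47 wells) and −0.16 in culture (53 wells). Id3 had 0.44, 0.58, 0.70, 0.23 and −0.04 in the 4T1 groups in the same order. The correlation of Id1 with total counts of a well stayed between −0.19 and 0.16. With the percent of mitochondrial counts it was 0.48 at day 4 in 4T1 and 0.47 at day 4 in 4T1.2, and its part in these values was not tested. With the blood gene sum it was between −0.26 and 0.08. With the summed cell cycle list it was between −0.08 at day 10 and 0.44 at day 16. That correlation was 0.24 in 4T1 culture and 0.37 in 4T1.2 culture.

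**Figure D3:**
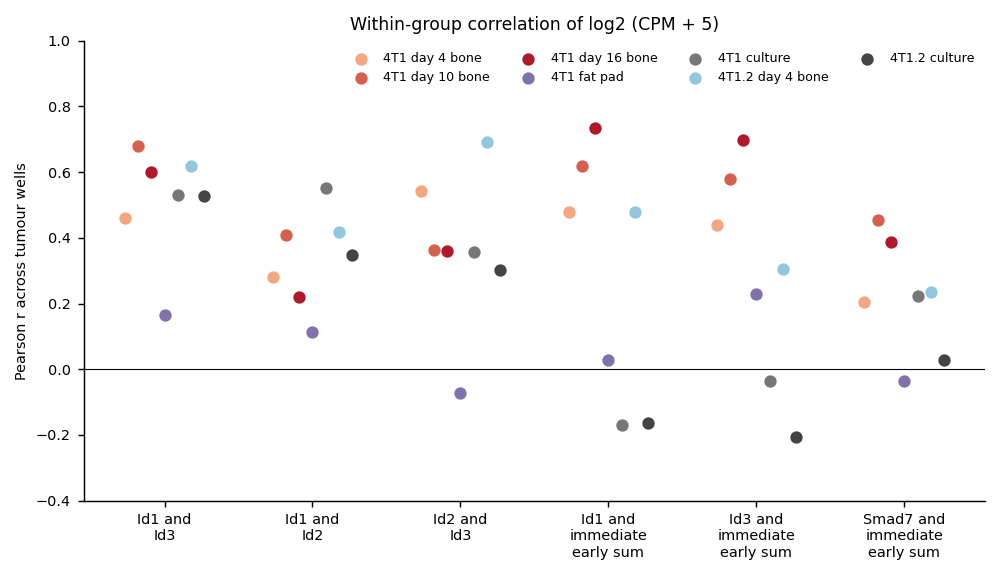
Pearson r of log2 (CPM + 5) across the tumour wells of each group (points, coloured by group) for 6 pairs of members or of a member and the summed immediate early genes. Id1 and the immediate early sum run between −0.17 in 4T1 culture and 0.74 at day 16, and the fat pad has the lowest r of Id1 with Id3, 0.16.

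Day 16 wells were not of 1 kind. Clustering of all wells without the members put 67 of the 71 tumour wells in 3 clusters. In the 21 wells of the cluster led by Epcam and Cldn4, both epithelial genes, the median was 357 CPM for Id1 and 43.7 CPM for Id2. In the 22 wells of the cluster led by Spp1, Mgp and Sox9 the medians were 210 CPM for Id1 and 302 CPM for Id2. In the 24 wells of the cluster led by Spp1, Cp and Clu, Id1 had 44.8 CPM and Id2 94.2 CPM. Id3 was high in all of them, with medians of 1072, 1080 and 689 CPM, and Smad7 had 132, 172 and 76.9 CPM. The Id1 and Id2 orders thus differed between clusters, while the ranges of all overlapped.

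Tumour wells were then set against the host wells sorted from the same marrow. From summed counts, Id1 stood at least 2-fold higher in tumour wells in all 4 bone groups. Host wells were a mix of classes, given below, and the median neutrophil-like host well over all groups held 117 CPM of Id1. The median tumour well held 445, 93.8 and 152 CPM at days 4, 10 and 16 in 4T1 and 330 CPM in 4T1.2. At day 4 in 4T1, 4 of 6 members were higher in tumour wells, beside 17% of all genes: Id1 with 658 CPM against 109 CPM in host wells, Id3 with 887 against 311 CPM, Id4 with 7.00 against 0.03 CPM and Smad6 with 8.36 against 1.01 CPM. Id4 and Smad6 reached 5 CPM only in tumour wells, where they were higher. With a floor of 20 CPM, 2 of 4 measured members stood at least 2-fold higher, beside 38.0% of all genes apart in either direction. Id2 (211 against 141 CPM) and Smad7 (94.3 against 51.5 CPM) were not 2-fold apart in summed counts. Their host wells split: the median host well held 6.14 CPM of Id2 and 2.22 CPM of Smad7 and the highest 4548 CPM and 910 CPM.

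At day 10, 3 of 4 measured members stood higher in tumour wells, beside 24.6% of all genes, and 1 lower, beside 18.5% of all genes. Id3 had 686 CPM in tumour wells against 28.1 CPM in host wells, a log2 ratio of 4.39. Id2 was the lower member, with 153 CPM in tumour wells against 613 CPM in host wells, a ratio of −1.97. Id1 was at 1.73, and at 1.02 without its highest tumour well, and Smad7 at 1.47.

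At day 16, 4 of 5 measured members stood higher in tumour wells, beside 23.9% of all genes, and 1 lower, beside 17.9%. Id3 was at 3.17, and at 4.23 without a single host well that held 55.8% of the host Id3 counts. Id1 was at 1.77, Smad7 at 1.69 and Smad6 at 1.22, the last at 0.96 without the tumour well that held most Smad6 counts, at 74.1 CPM. Smad6 reached 5 CPM only in tumour wells, where it was higher. Id2 was lower, with 232 CPM in tumour wells against 562 CPM in host wells.

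In 4T1.2 at day 4, 3 of 5 measured members stood higher in tumour wells, beside 16.1% of all genes. They were Id1 at 2.28, Id3 at 1.53 and Id4 at 1.82, the last resting on the single well named above, without which it was not at 5 CPM. Id2 was level, with 109 CPM in tumour wells and 112 CPM in host wells. Smad7 had 75.9 CPM in tumour wells against 39.6 CPM in host wells.

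Ratios of tumour over host wells for E proteins and other basic helix-loop-helix factors differed by day. Within tumour wells, 4 genes of this list were measured between day 10 and day 4, and none was 2-fold apart. Of the E proteins and other basic helix-loop-helix factors in 4T1, 1 of 6 was higher and 3 lower in tumour wells at day 4, and 4 of 5 were higher and 1 lower at day 10 and again at day 16. Lyl1, a basic helix-loop-helix factor of blood cells, had 1.34 CPM in tumour wells against 84.6 CPM in host wells at day 4, 2.27 against 88.5 CPM at day 10 and 1.72 against 72.6 CPM at day 16. Tcf3, which encodes the E proteins E12 and E47, was lower in tumour wells at day 4 (178 against 369 CPM) and higher at day 10 (120 against 29.9 CPM). Host wells of these days held different cell classes, as given below. Of the receptors in 4T1, 4 of 9 were higher in tumour wells and 1 lower at day 4, 5 of 9 higher and none lower at day 10, and 5 of 11 higher and 2 lower at day 16. Bmpr1a, a BMP type I receptor gene, had 36.3, 27.2 and 43.7 CPM in tumour wells at days 4, 10 and 16, against 7.62, 3.59 and 8.23 CPM in host wells. Acvrl1, a type I receptor of the same family, went the other way at day 16, with 0.26 CPM in tumour wells against 33.6 CPM in host wells. Immediate early genes stood at least 2-fold higher in tumour wells as well, 12 of 14 at day 4, 10 at day 10 and 12 at day 16 in 4T1, and 5 of 14 at day 4 in 4T1.2.

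**Figure D4:**
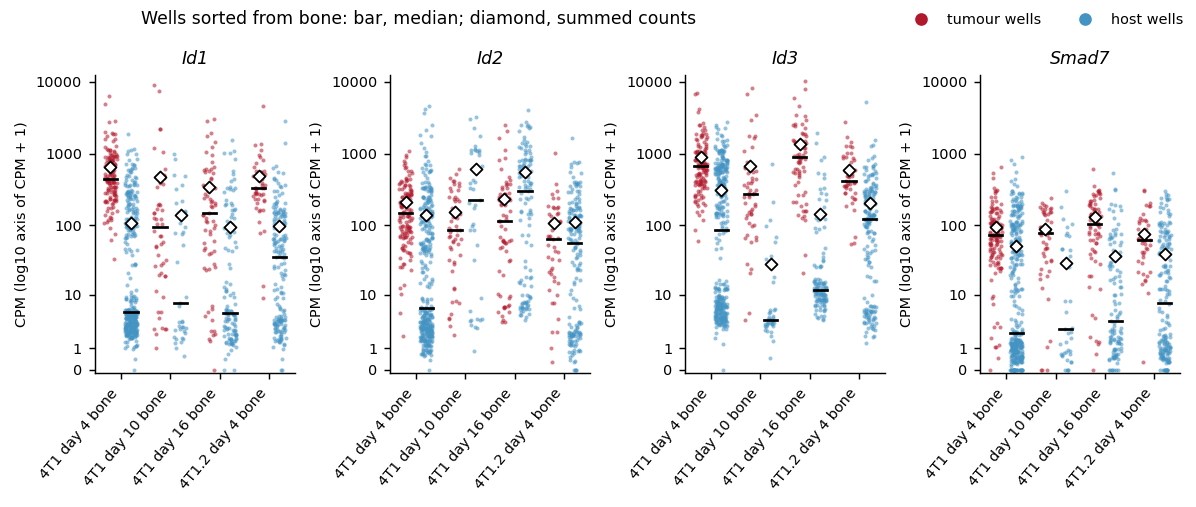
CPM of Id1, Id2, Id3 and Smad7 per well (vertical axis log10 of CPM + 1) in tumour wells and host wells of the 4 bone groups, with the median well (bar) and summed counts (diamond). Host Id2 lies above tumour Id2 at days 10 and 16, with 613 and 562 CPM in summed counts.

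The ID genes also differed between host classes. Clusters were named from marker genes, and 703 host wells lay in clusters of blood cells. Of these 145 were B cell-like, 165 neutrophil-like, 100 monocyte or macrophage-like, 56 erythroid-like, 21 T or NK cell-like and 18 plasmacytoid dendritic cell-like. Another 116 lay in a cluster led by both neutrophil and B cell genes and 82 in a cluster led by monocyte and myeloid progenitor genes, and these received no single name. No doublet caller was run on these wells.

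B cell-like wells carried Id3 without Id1. The lowest, median and highest of the 145 held 2.71, 517 and 2781 CPM of Id3, and 0.41, 3.30 and 176 CPM of Id1. At least 20 CPM was reached by 89.7% of them for Id3, by 17.9% for Id2 and by 2.07% for Id1. Smad7 had a median of 15.5 CPM there. Plasmacytoid dendritic cell-like wells also had Id3, with a median of 121 CPM and a highest well of 2509 CPM.

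Most neutrophil-like wells carried Id1, and few passed 20 CPM of Id3. Their lowest, median and highest wells held 0, 117 and 1544 CPM of Id1, against 0.45, 6.06 and 1925 CPM of Id3. At least 20 CPM was reached by 65.5% for Id1 and by 4.24% for Id3. Id1 medians of the 4 groups were 118 CPM at day 4, 157 CPM at day 10 and 123 CPM at day 16 in 4T1, and 25.6 CPM at day 4 in 4T1.2. The last group had 17 such wells.

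Id2 reached 20 CPM in most macrophage-like and most T or NK cell-like wells. Monocyte or macrophage-like wells, led by Apoe and the complement genes C1qa, C1qb and C1qc, held 1.11, 710 and 4548 CPM of Id2 in their lowest, median and highest well. T or NK cell-like wells held 6.18, 374 and 3262 CPM, and 95.2% of the 21 had at least 20 CPM. By contrast the median B cell-like well held 2.71 CPM. At least 20 CPM of Id2 was also found in 49.1% of neutrophil-like wells and in 61.0% of wells of the cluster led by monocyte and myeloid progenitor genes. Macrophage-like medians of Id2 were 761, 1061 and 682 CPM at days 4, 10 and 16 and 264 CPM in the 10 fat pad wells.

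The host mix changed with the group, and the summed host levels changed with it. Of the classified 4T1 host wells, 106 were B cell-like and 12 macrophage-like at day 4, 0 and 17 at day 10 and 4 and 60 at day 16. The day 4 host sum of Id3, 311 CPM, and the day 10 sum, 28.1 CPM, were therefore taken over different cells, as were the Id2 sums of 141 and 613 CPM. Id4 did not exceed 0.29 CPM in summed counts of any host group, and Smad6 reached at most 3.17 CPM, at day 16. Of the host classes, monocyte or macrophage-like wells had the highest Smad6 sum, 4.44 CPM over all groups. At day 16 their sum was 5.99 CPM, and 13.3% of the 60 had at least 20 CPM, up to 88.0 CPM.

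**Figure D5:**
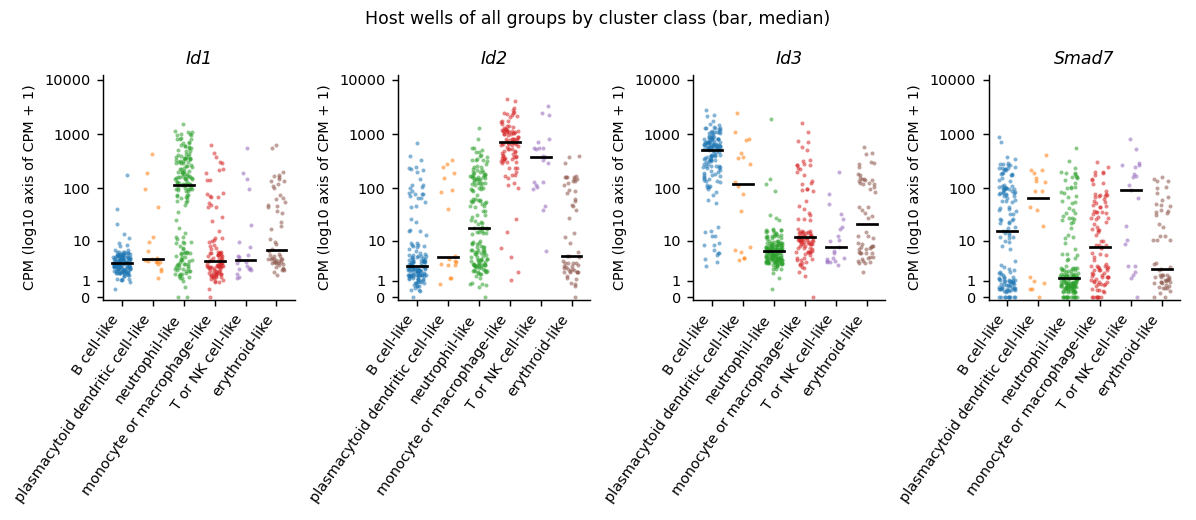
CPM of Id1, Id2, Id3 and Smad7 per host well (vertical axis log10 of CPM + 1) in 6 named cluster classes over all groups, with the median well as a bar. The medians stand at 517 CPM for Id3 in B cell-like wells, 117 CPM for Id1 in neutrophil-like wells and 710 CPM for Id2 in monocyte or macrophage-like wells.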

How the data were processed

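Full-length cDNA of single sorted cells had been made with a modified Smart-seq2 protocol and sequenced in pairs, per the labels' protocols. The authors deposited 1 table of whole-number read counts per gene symbol and cell. Per the submitters' processing notes the build was mm10, and they list, without roles, STAR 2.6.0c, featureCounts 1.6.2, Seurat 3.1.2, R 3.6.2, Trim Galore 0.6.6, SAMtools 1.7 and FastQC 0.11.7. The annotation and the strand setting are not given in the sources used here. Of 40840 entries, 78 spike-ins, 2 reporters and 26 date-like symbols (0.670%, 0.187% and 0.107% of counts) stayed out of totals.

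Of 1248 wells, 1218 had at least 1000 detected genes, at least 50000 counts and at most 25% mitochondrial counts. No pair of wells held identical values. Median totals per well were between 2645740.5 and 3051434 counts by group. CPM are plain shares of gene counts. Ratios are log2 of (CPM + 5), counted for genes at 5 CPM or more in either group. A share of wells at 20 CPM or more was preferred to a share with any count, because a few CPM of Id1, Id2 and Id3 stood in most wells of every class. No test was made, because wells of a group are 1 sample.

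Leiden clustering (leidenalg 0.10.2 on igraph 0.11.9, through scanpy 1.11.5) on 2000 variable genes without the members, with 20 components, 15 neighbours and resolution 1, yielded 19 clusters. Naming needed 3 or more markers of a class, each at a median of 50 CPM or more and 1 log2 unit above the other wells. The naming rule dates from after the clusters were seen. No doublet caller was run: a well was 1 sort event, and 40 tumour wells had 300 CPM or more of the blood genes. Keratin and blood genes gave the same kind as the clusters for 492 of 501 tumour wells and 703 of 717 host wells. Krt8 and Krt18 were also among the tumour markers that named the clusters, so this match was partly fixed in advance.

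Alternatives were TMM factors (edgeR 4.0.16), DESeq2 1.42.0 size factors, both in R 4.3.3, equal weight per well, no well filter, a pseudocount of 1 CPM, no floor or 20 CPM, stricter wells, clusters in place of keratin and blood genes, and, added after the data were seen, median wells. Python 3.11.15, numpy 2.4.6, pandas 2.3.3, scipy 1.17.1 and matplotlib 3.10.9 did the rest. Only the steps for summed levels and ratios were tested on simulated data. Genes named from lists are up to 3 furthest in each direction with 20 CPM or more in the higher group, and those named as most alike are the 3 with the highest mean within-group r. The members and lists were chosen with earlier results of these data known.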

Additional observations from a re-analysis of the deposited data

Results flagged for a closer look

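Id1 differed in direction between the lines by setting: its log2 ratio of 4T1.2 over 4T1 was 0.23 in culture and −0.40 at day 4 in bone. Neither reached 2-fold, and the difference between them was not tested.

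Id2 changed sides between tumour and host wells. Its log2 ratio of tumour over host wells was 0.57 at day 4 and −1.97 at day 10 in 4T1, a difference that was not tested. The host wells at day 4 held 106 B cell-like and 12 macrophage-like wells, and those at day 10 held 0 and 17.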

How the results depend on the processing

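The number of members at least 2-fold apart stayed within 1.5 times the value reported in 111 recounts and moved in 9, and no called member changed sign under any alternative listed. The count for day 10 against day 4 was 1 with a pseudocount of 1 CPM and 2 from median wells, in place of 0. For day 16 against day 4 it was 1 with a pseudocount of 1 CPM and 1 from median wells, in place of 0. The fat pad against culture gave 3 from median wells (1 higher, 2 lower) in place of 1, and median wells were chosen after the data were seen. For 4T1.2 against 4T1 at day 4 it was 1 with TMM factors, 2 with stricter wells (Id4 higher, Id2 lower) and 1 from median wells, in place of 0. The Id4 ratio of this comparison, 0.64 from all tumour wells, was −0.78 without the single 4T1.2 well at 503 CPM. For tumour against host wells at day 4 it was 2 with a floor of 20 CPM in place of 4, because fewer members were measured (4 of 6). The cause of the other shifts was not tested. For the gene lists 148 recounts moved by more than 1.5 times and 1052 did not. Shares of wells with any count of a member, thinned to 200000 in place of 500000 counts, moved in 5 cases and held in 37. Taken over every gene measured, ratios from median wells had a median of −0.89 for the fat pad against culture (−0.14 from summed counts) and of 1.87 for tumour against host wells at day 4 in 4T1 (0.02 from summed counts).

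No paired analysis was possible because the replicate numbers in the labels only number cells. Animals, plates and cultures are not named, so no spread between animals is known, and the Poisson intervals do not cover it. Id4 and Smad6 are too low for most single wells to be informative.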
